A study of Mus musculus with 6 samples.

Results

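The CHD genes encode chromodomain helicase DNA-binding proteins, ATP-driven nucleosome remodelers, and 8 of them are described here: Chd1, Chd2, Chd3, Chd4, Chd6, Chd7, Chd8 and Chd9. They were taken by symbol from the 19323 genes of a table of normalized read counts, and they were picked because Chd3 stood apart from its paralogs between the 2 diets of the study. The diet contrast therefore chose the group, and its values for these genes are given as a description, without a test. All 8 genes had a row in the table, and 8 of 8 passed the filter on low values (a mean of at least 10 normalized counts over the 6 libraries), as did 13430 genes in all.

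RNA was sequenced from primary CD8+ T cells isolated from the spleens of wild-type C57BL/6 mice that were 6 weeks old at the start. The mice received a diet that the labels call ND or one that they call MCDHFD, each for 7 weeks, and they are named as models of MASH, an inflammatory fatty liver disease. There were 3 libraries per diet, and no gene was altered in either group. Whether each library stands for its own animal is not in the labels. The p-values then measure no more than the spread between these samples, which may be technical.

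CHD proteins carry paired chromodomains in front of an SNF2-type ATPase motor that moves nucleosomes along DNA. Chd1 and Chd2 work on transcribed genes, Chd3, Chd4 and Chd5 are alternative motors of the NuRD complex, which joins nucleosome remodeling with histone deacetylation, and Chd6 to Chd9 form the remaining subfamily. In the T cell lineage Chd4 is known for its part in thymocyte development and in the expression of Cd4, while Chd3 is the close relative of Chd4 that can take its place in NuRD.

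The labels give the cells as CD8+ T cells, and markers of that and of other cell types were read in all libraries. The normalized counts of a library added up to 14119816 to 14752121. Whole reads were recovered for 5 of the 6, all but ND replicate 3, and numbered 13188812 to 15482458. All fits by edgeR and DESeq2 use only these 5 libraries, so they differ from limma in samples as well as in method. All 20 CD8 T cell identity markers were detected in both diets, and all 20 fell in MCDHFD by limma (median log2 fold change -1.02). Their summed share of all counts went from 0.802–0.810% to 0.374–0.422%. Of the macrophage markers 19 of 20 rose (0.431–0.522% to 2.18–2.65% of all counts), as did 15 of 15 tested erythroid markers (0.0294–0.0313% to 0.125–0.195%) and 13 of 14 tested neutrophil markers (0.00804–0.0142% to 0.0731–0.125%). The remaining macrophage marker, Lyz2, did not pass by limma. It passed as lower under quantile scaling and in edgeR and DESeq2, and as higher under the second scaling described below. Of the B cell markers 13 of 15 fell and 2, Ighm and Igkc, rose (median log2 fold change of the 15 -1.91). The summed share of the 15 went from 0.164–0.182% to 0.176–0.215%, and it was kept up by Ighm and Igkc, since the other 13 fell. Of the plasma cell markers 5 of 9 tested rose and 1 fell (0.0396–0.0413% to 0.0758–0.111%). Of the dendritic cell markers 12 of 15 fell and 2 rose (0.472–0.514% to 0.215–0.224%), and 4 of 5 tested NK cell markers fell (0.0364–0.0385% to 0.0162–0.0175%). These counts of markers are by limma (adjusted p under 0.05). They stand beside 30.3% of all tested genes that passed as higher and 28.1% as lower. No marker with a row in the table was at 0 in all libraries of a diet. The part of these cell types in the differences of the CHD genes was not tested, and in bulk samples fewer cells of a type and less RNA per cell cannot be told apart.

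A second scaling was therefore set beside the deposited one. It sets every library to an equal mean log2 value over the 20 identity markers of CD8 T cells, and it shifted the median of all tested genes from a log2 fold change of 0.0038 to 1.03. The 20 markers did not fall by an equal amount (log2 fold changes from -1.56 to -0.38). After the scaling 7 of them still passed as higher and 8 as lower by limma. A turn of direction under this scaling thus depends on the markers chosen. Under it 11180 genes passed as higher and 455 as lower in MCDHFD, against 4065 and 3772 with the deposited scaling (limma, adjusted p under 0.05). Where this identity scaling turns a direction, that is said beside the value.

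Chd3 was the member that differed most. Its normalized counts were 17597, 15004 and 15446 in the ND libraries and 4355, 3743 and 3820 in the MCDHFD libraries. The lowest ND library lay 10649 normalized counts above the highest MCDHFD library, so the diets did not overlap. The mean went from 16016 ± 1388 to 3972 ± 333 (SD, n = 3 per diet), which left 24.8% of the ND level (4.03-fold lower, log2 fold change -2.01). Of all genes tested, 225 (1.68%) had a lower log2 fold change than Chd3, and 1.71% were lower in MCDHFD by at least 4-fold. Within the 3462 genes that averaged between 1000 and 20000 normalized counts, 8 (0.231%) had a lower one. By mean normalized count Chd3 was number 66 of the tested genes in ND and number 650 in MCDHFD.

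In mm10 coordinates, with the GENCODE M21 annotation, Chd3 (ENSMUSG00000018474) is on the minus strand of chromosome 11 from 69343273 to 69369406. It has the shortest gene body of the 8 members, 26.1 kb, with 10 annotated transcripts of up to 40 exons and 8.443 kb of exon in all. Chd4 (ENSMUSG00000063870) is on the plus strand of chromosome 6 from 125095981 to 125130591. The coding sequences of the pair are alike enough to ask whether reads could be assigned to the wrong gene. The longest stretch that they share without a difference is 35 bases, and it lies in the part that encodes the ATPase motor. It is shown in capitals within 120 bases of each coding sequence (positions 3580 to 3699 of Chd3-202 and 3373 to 3492 of Chd4-201, counted from the start codon, read 5′ to 3′ from the GENCODE M21 transcripts).
Chd3: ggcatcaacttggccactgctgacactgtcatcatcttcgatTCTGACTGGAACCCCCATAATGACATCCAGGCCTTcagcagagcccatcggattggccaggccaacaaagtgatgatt
Chd4: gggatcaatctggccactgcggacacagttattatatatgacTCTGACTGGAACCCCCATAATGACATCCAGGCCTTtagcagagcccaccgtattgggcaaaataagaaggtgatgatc

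Outside the capitals the copies differ every few bases, and over the whole window 98 bases were identical and 22 differed. Over their aligned coding sequences, 71.2% of bases were identical between Chd3 and Chd4 and 73.8% between Chd3 and Chd5, against 54.6% to 56.7% for the other CHD genes. No stretch of 50 bases was shared between the coding transcripts of any pair of the 10 CHD genes. Chd3, Chd1 and Chd7 also shared none with any gene outside the family. Chd8 shared 5.99% of its 50-base stretches with the predicted genes Gm26590 and Gm49656, and Chd2 shared 5.63% with 1810026B05Rik. Chd6, Chd9 and Chd4 shared 1.06%, 0.497% and 0.189% with other genes. These are shares of stretches and not of reads, so how many counts they affect was not measured. Reads from such stretches of these 5 genes could be split with a copy or an overlapping gene. The way such reads were counted, and any use of strand, remain not given in the sources used here.

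**Figure D1:**
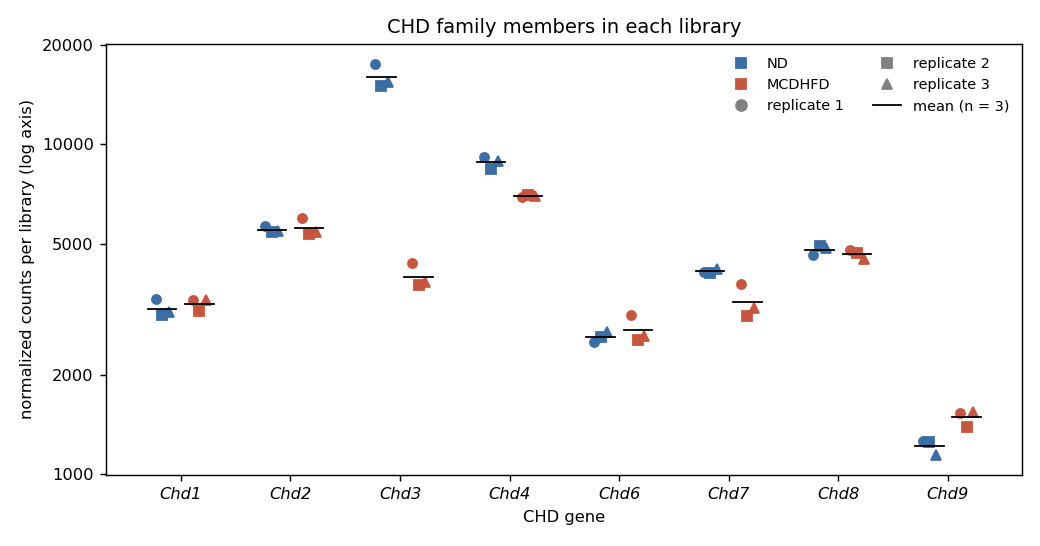
Normalized counts (log axis) of each of the 8 CHD members in the 6 libraries, coloured by diet and shaped by replicate, with a line at the mean of each diet (n = 3). Chd3 sits at 15004 to 17597 in ND and at 3743 to 4355 in MCDHFD, while the points of Chd1, Chd2, Chd6 and Chd8 overlap between the diets; under the identity scaling Chd4 and Chd7, lower here, turn higher.

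Chd4, the more widely used NuRD motor, had 9155, 8448 and 8889 normalized counts in ND and 6919, 7034 and 6998 in MCDHFD. Every MCDHFD library was below every ND library, and the MCDHFD libraries lay close together. The mean went from 8831 ± 357 to 6984 ± 58.5 (SD, n = 3 per diet). Its log2 fold change was -0.34, and it turned to 0.70 under the identity scaling. In ND, Chd3 made up 65.8%, 64.0% and 63.5% of the summed normalized counts of Chd3 and Chd4. In MCDHFD its share was 38.6%, 34.7% and 35.3%, so Chd3 had more counts than Chd4 in each ND library and fewer in each MCDHFD library. This share is taken within a library, so multiplying a whole library by a factor does not move it. Per kb of exon, the ratio of Chd3 to Chd4 was 1.83, 1.69 and 1.65 in ND and 0.598, 0.505 and 0.518 in MCDHFD. The sum of the pair went from 24846 ± 1709 to 10956 ± 276 normalized counts.

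The other motor of that subfamily, Chd5, known from neurons and testis, was near the limit of detection and lies outside the 8 members. It had 2.94, 1.95 and 10.9 normalized counts in ND and 30.1, 15.7 and 15.7 in MCDHFD. The diets did not overlap, but all 6 values are small beside those of Chd3 and Chd4, and without MCDHFD replicate 1 the gene no longer passed the filter. Its log2 fold change was 1.99, and it ranged from 1.59 to 2.59 over the other libraries left out in turn. With a pseudocount of 4 it was 1.48. On the recovered reads, without ND replicate 3, it was 3.01 in edgeR and 3.07 in DESeq2, beside 2.59 in limma without that library.

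Chd1 and Chd2 are the remodelers of transcribed chromatin, and Chd1 reads the histone H3K4 methylation found at active promoters. Chd1 had 3401, 3032 and 3094 normalized counts in ND and 3369, 3122 and 3369 in MCDHFD. Chd2 had 5650.4, 5433 and 5454 in ND and 5985, 5358 and 5414 in MCDHFD. In both genes the libraries of the diets were interleaved. Chd1 averaged 3176 ± 197 and 3287 ± 142 (log2 fold change 0.05), and Chd2 averaged 5512 ± 120.0 and 5586 ± 347 (log2 fold change 0.02; -0.03 without MCDHFD replicate 1). Chd1 (ENSMUSG00000023852) is on chromosome 17 from 15704967 to 15772610, plus strand, and Chd2 (ENSMUSG00000078671) on chromosome 7 from 73426638 to 73541830, minus strand.

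Of the remaining subfamily, Chd7, the gene mutated in CHARGE syndrome, was lower in MCDHFD. It had 4090.02, 4064 and 4189.7 normalized counts in ND and 3766, 3010.4 and 3184 in MCDHFD. The diets did not overlap, and MCDHFD replicate 1 lay nearer to the ND libraries than the other two of its diet. The mean went from 4115 ± 66.2 to 3320.1 ± 395, a log2 fold change of -0.32 that turned to 0.72 under the identity scaling. Chd7 (ENSMUSG00000041235) is on chromosome 4 from 8690406 to 8867659, plus strand.

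Chd9 was the member that was higher in MCDHFD with no overlap. It had 1262, 1245 and 1139 normalized counts in ND and 1531, 1385 and 1539 in MCDHFD, and the highest ND library was below the lowest MCDHFD library. The mean went from 1215 ± 66.5 to 1485 ± 86.9 (log2 fold change 0.29). Chd9 (ENSMUSG00000056608) is on chromosome 8 from 90828352 to 91054516, plus strand, and has the longest gene body of the 8.

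Chd8, a regulator of Wnt signalling targets best known from autism genetics, and Chd6 completed the group. Chd8 had 4625, 4908 and 4849.9 normalized counts in ND and 4785, 4666 and 4482 in MCDHFD. Chd6 had 2521, 2604 and 2694 in ND and 3028, 2550.4 and 2614 in MCDHFD. The diets overlapped in both. Chd8 averaged 4794 ± 149.7 and 4644 ± 153 (log2 fold change -0.05, which turned to 0.99 under the identity scaling), and Chd6 averaged 2606 ± 86.7 and 2731 ± 259 (log2 fold change 0.06; -0.01 without MCDHFD replicate 1). Chd8 (ENSMUSG00000053754) is on chromosome 14 from 52198151 to 52257780, and Chd6 (ENSMUSG00000057133) on chromosome 2 from 160946978 to 161109075, both on the minus strand.

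Chd1l, a remodeler with a macrodomain but no chromodomains that acts in DNA repair, was lower by about as much as Chd4. It had 956, 973 and 967 normalized counts in ND and 714, 773 and 785 in MCDHFD, with no overlap (965 ± 8.30 and 758 ± 38.0, log2 fold change -0.35, turned to 0.68 under the identity scaling).

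Counted over the 8 members, 3 were lower in MCDHFD with no overlap between the diets (Chd3, Chd4 and Chd7), 1 was higher (Chd9) and 4 overlapped. Of all tested genes, 32.3% were lower and 33.2% were higher without overlap, 65.4% in all, so a gap between the diets was common in this table. The group was chosen from this contrast, and nothing is read from its count. The median log2 fold change of the 8 was -0.01, beside 0.0038 for all tested genes, of which the middle 50% lay between -0.38 and 0.42. The 7 members other than Chd3 ranged from -0.34 to 0.29, inside that middle range. MCDHFD replicate 1 was the highest of its diet in 6 of the 8 members. It was so in 35.0% of tested genes, and in 47.3% of the 2167 tested genes with at least 8 kb of exon. Variation within a diet (SD over mean) ran from 1.61% to 8.66% in ND and from 0.838% to 11.9% in MCDHFD, around the medians of 4.27% and 5.02% for genes with means of 1000 to 20000 normalized counts.

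The distance between Chd3 and its paralogs can be measured inside each library, where any scaling factor cancels. On the log2 scale Chd3 stood above the mean of the 7 other members by 2.23, 2.03 and 2.06 in ND and by 0.19, 0.12 and 0.10 in MCDHFD. These averages of 2.11 ± 0.105 and 0.14 ± 0.0497 (SD, n = 3 per diet) differ by -1.97. The ND libraries were all high and the MCDHFD libraries all near 0, with no overlap. Against single paralogs, the difference in log2 distance was smallest for Chd4, at -1.67, and Chd7, at -1.69. It was -1.97 for Chd8, -2.03 for Chd2, -2.06 for Chd1, -2.07 for Chd6 and -2.30 for Chd9. Leaving out each library in turn gave -2.01 to -1.91 for the distance to the mean of the 7.

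**Figure D2:**
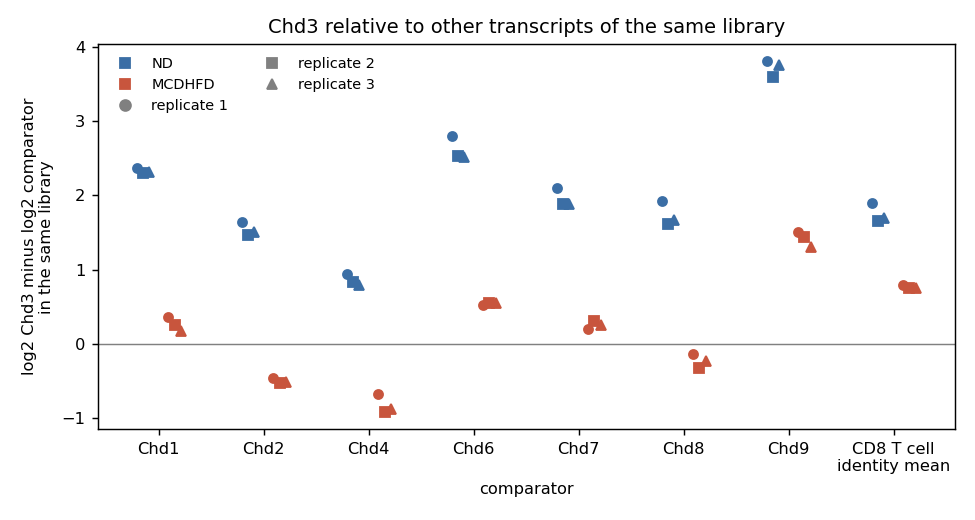
Log2 value of Chd3 minus the log2 value of each of the 7 other members, or minus the mean of the CD8 identity markers, in each of the 6 libraries (coloured by diet, shaped by replicate; 1 point per library). Every MCDHFD point lies below every ND point of the same comparator, with the smallest mean difference among the paralogs for Chd4 (-1.67) and -0.98 for the identity markers.

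Chd3 was also lower in MCDHFD when measured against T cell markers. Set against the mean log2 value of the 20 identity markers, which itself went from 12.2 to 11.2, Chd3 stood at 1.89, 1.65 and 1.69 in ND and at 0.80, 0.76 and 0.76 in MCDHFD (difference -0.98). Against Cd3e, a chain of the T cell receptor complex that fell from 3670.4 ± 177 to 1840.3 ± 140.1 normalized counts, the difference was -1.01. Against Cd8a, the CD8 co-receptor chain, which fell from 13784 ± 350.4 to 5264 ± 458, it was -0.62. Measured in the same way, the 7 other members all stood higher in MCDHFD, by 0.70 (Chd4) to 1.32 (Chd9). The direction of Chd3 was thus the same with either scaling, and its size was not: -2.01 with the deposited scaling and -0.98 with the identity scaling.

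The makeup of the family total followed. The summed normalized counts of the 8 members went from 46265 ± 1835 to 32009 ± 1522, and those of the 7 others from 30249 ± 487 to 28037 ± 1190.0. The share of the 8 members in all counts was 0.317–0.338% in ND and 0.211–0.232% in MCDHFD. Per kb of exon, Chd3 held 41.9% ± 1.55 of the family total in ND and 16.6% ± 0.694 in MCDHFD. The share of Chd4 per kb went from 24.3% ± 0.469 to 30.7% ± 1.5, so that Chd4 was the largest part of the family in MCDHFD. Both shares are parts of 1 total, and a smaller share of Chd3 raises the others.

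**Figure D3:**
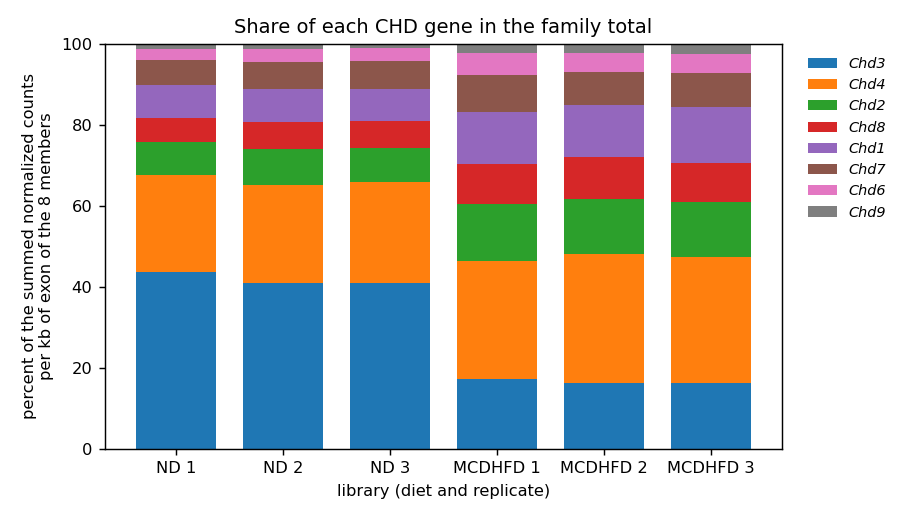
Share of each CHD gene in the summed normalized counts per kb of exon of the 8 members (percent, bars to 100), for each of the 6 libraries. Chd3 is the largest part in the 3 ND libraries, 41.9% on average, and Chd4 in the 3 MCDHFD libraries, 30.7% on average.

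Levels of different genes can be ranked only per length. Per kb of annotated exon, the order in ND was Chd3 (1897 ± 164 normalized counts per kb), Chd4 (1101 ± 44.5), Chd2 (385 ± 8.39), Chd1 (364 ± 22.6), Chd7 (298 ± 4.80), Chd8 (290.1 ± 9.06), Chd6 (137 ± 4.54) and Chd9 (52.5 ± 2.87). Chd2 and Chd1 overlapped in their ND libraries, as did Chd7 and Chd8, and the other neighbours in the order did not. In MCDHFD the order was Chd4 (871 ± 7.30), Chd3 (470.5 ± 39.5), Chd2 (391 ± 24.3), Chd1 (377 ± 16.3), Chd8 (281 ± 9.24), Chd7 (241 ± 28.7), Chd6 (143 ± 13.6) and Chd9 (64.2 ± 3.76). Here Chd2 and Chd1 overlapped, and Chd8 and Chd7. The place of Chd3 in MCDHFD depends on the length used. Divided by the longest coding transcript instead, Chd4 was at 1043 normalized counts per kb, Chd2 at 615, Chd3 at 547 and Chd8 at 546. There Chd3 overlapped with Chd2 and with Chd8, while Chd2 and Chd8 did not overlap. With either length Chd3 led in ND and Chd4 in MCDHFD.

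The other SNF2-type ATPases place Chd3 among its wider relatives. Of 22 such genes outside the CHD family, 21 passed the filter on low values, and 2 of them rose and 6 fell (limma, adjusted p under 0.05), 38.1% in all. Of all tested genes, 58.4% passed, 30.3% as higher and 28.1% as lower. The median log2 fold change of the 21 was -0.11. Under the identity scaling 18 of the 21 passed as higher and none as lower (limma, also none at an unadjusted p under 0.05). Of all 13430 tested genes, 11180 passed as higher and 455 as lower under that scaling. Chd3 had the lowest log2 fold change of the 29 genes of both groups together. Next were Ttf2, a transcription termination factor, which fell from 490 ± 19.0 to 256 ± 40.8 (-0.95, SE 0.12, limma adjusted p = 0.000178), and Ercc6, the Cockayne syndrome B repair protein, which fell from 1538 ± 34.2 to 955 ± 37.9 (-0.69, SE 0.06, limma adjusted p = 1.18e-05). These turned to 0.08 and 0.35 under the identity scaling. Srcap and Shprh also fell, by 0.49 and 0.37 on the log2 scale (0.55 and 0.66 under the identity scaling). At the other end, Hltf, a DNA damage tolerance enzyme, rose from 1124 ± 99.7 to 1442 ± 198 (0.36), and Btaf1, which removes TBP from DNA, from 1808 ± 35.5 to 2246 ± 48.1 (0.31). Without ND replicate 2, 1 of the 21 passed as higher.

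The remaining subunits of NuRD, the complex that Chd3, Chd4 or Chd5 drives, moved little beside Chd3. Of 13 subunits tested, 2 rose and 5 fell by limma, and their log2 fold changes ran from -0.37 to 0.24 with a median of -0.05. The share that passed, 53.8%, stands beside 58.4% of all tested genes. Under the identity scaling all 13 passed as higher, as did 11180 of all 13430 tested genes. The direction of each of the 5 that fell thus depends on the scaling. Among those 5 were the histone deacetylases Hdac1 and Hdac2 and the histone chaperone Rbbp7. Rbbp7 went down from 1949 ± 84.0 to 1513 ± 77.2 (log2 fold change of -0.37 with an SE of 0.06, limma adjusted p = 0.00083; 0.67 under the identity scaling). Hdac2 fell from 1047 ± 35.5 to 819 ± 100.4 (-0.36, limma adjusted p = 0.0082; 0.67 under the identity scaling). Hdac1 fell from 1099 ± 39.3 to 903 ± 87.1 (-0.29, limma adjusted p = 0.0114; 0.75 under the identity scaling).

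The methyl-CpG-binding subunits went in opposite directions. Mbd3 fell from 1321 ± 68.6 to 1136 ± 40.7 (-0.22, limma adjusted p = 0.0142; 0.82 under the identity scaling), and Mbd2, its alternative in the complex, rose from 2765 ± 111 to 3195 ± 143 (0.21, limma adjusted p = 0.0112). Mta1, a scaffold subunit, rose from 1776 ± 103 to 2106 ± 177 (0.24, limma adjusted p = 0.0187), a call that was lost without ND replicate 1 and without ND replicate 3. On the recovered reads, without ND replicate 3, edgeR and DESeq2 called 0 subunits as higher. Both methods had Mta1 and Mbd2 at an unadjusted p under 0.05, and called 53.2% and 50% of all genes in either direction. Cdk2ap2, a small accessory subunit, fell from 1857 ± 105 to 1627 ± 111 (-0.19, limma adjusted p = 0.0408, and 0.84 under the identity scaling). This call was lost without ND replicate 1, ND replicate 3 or MCDHFD replicate 1 and in edgeR and DESeq2. It was also lost with no filter on low values, with library quality weights, with a replicate block and without the intensity trend. The 6 that did not pass had log2 fold changes of 0.04 (Mta2), -0.16 (Mta3, 0.88 under the identity scaling), -0.05 (Rbbp4, 0.98 under the identity scaling), 0.08 (Gatad2a), 0.02 (Gatad2b) and 0.20 (Cdk2ap1). In Gatad2b, MCDHFD replicate 2 stood at 688 normalized counts beside 1150 and 1204 in the other two, and without it the gene passed as higher (0.28). Within libraries, Chd3 stood 3.38 above the mean log2 value of the 13 subunits in ND and 1.44 above it in MCDHFD.

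Among proteins that bring NuRD to its sites on DNA, Ikzf2, Bcl11a and Ikzf3 fell and Zbtb7b rose, each by more than 1 on the log2 scale. Of 15 listed, 12 were tested, and 2 rose and 6 fell by limma (66.7%, beside 58.4% of all tested genes; median log2 fold change -0.54). Under the identity scaling 7 passed as higher and 2 as lower, beside 11180 and 455 of all 13430 tested genes. Ikzf2, the Ikaros family factor Helios, had 371, 314 and 266 normalized counts in ND and 15.1, 26.5 and 91.7 in MCDHFD. It fell by 3.19 on the log2 scale (SE 0.53, limma adjusted p = 0.00084), with the MCDHFD libraries far apart from each other. Ikzf3, the related factor Aiolos, fell from 4657 ± 164 to 2268 ± 224 (-1.04, limma adjusted p = 4.38e-06), and under the identity scaling its log2 fold change was -0.01. Bcl11a fell from 357 ± 34.0 to 116 ± 26.2 (-1.64, limma adjusted p = 4.16e-05). Zbtb7b, known as ThPOK and as the factor that sets the CD4 helper fate in the thymus, rose from 240 ± 18.4 to 580 ± 44.0 (1.27, limma adjusted p = 6.25e-06). Bcl11b, Zmynd8 and Bcl6 were the other genes that fell and Zfp512b the other that rose, and under the identity scaling the first 3 turned to 0.08, 0.18 and 0.25. Several of these factors are also used by B cells and dendritic cells, whose markers mostly fell too, and the part of such cells in these values was not tested.

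The partners of the other members were lists of general cell machinery, and their counts by limma stand beside 30.3% of all tested genes that passed as higher and 28.1% as lower. Of the ChAHP group, in which Chd4 joins Adnp and heterochromatin proteins, 6 of 6 were tested, Adnp rose (0.25, limma adjusted p = 0.00917) and Adnp2 and Pogz fell (-0.47 and -0.26); the median was -0.15 and 3 of the 6 passed. Without ND replicate 1 or MCDHFD replicate 3 Pogz no longer passed, and 1 of the 6 passed as lower. Of 10 elongation factors that work with Chd1 and Chd2, none rose, whether by limma, edgeR or DESeq2 and also at an unadjusted p under 0.05, and 4 fell by limma. Those 4 were Leo1 (-0.47), Ctr9 (-0.36) and Cdc73 (-0.20) of the Paf1 complex and the pausing factor Supt5 (-0.31); the median of the 10 was -0.17 and 40.0% passed. The Cdc73 call was lost without any 1 of the 3 ND libraries or MCDHFD replicate 1, without the intensity trend, and in edgeR and DESeq2. Of 5 genes for the core of the H3K4 methyltransferases and Ctcf, Wdr5 rose (0.17, limma adjusted p = 0.0469) and Dpy30 (-0.39), Rbbp5 (-0.29), Ash2l (-0.23) and Ctcf (-0.15) fell, with a median of -0.23. The Wdr5 call was lost under TMM and quantile scaling, in edgeR and DESeq2, and without any 1 library other than ND replicate 3. It was also lost with no filter on low values, with a replicate block and without the intensity trend. Dpy30 did not pass in edgeR or DESeq2, and not at an unadjusted p under 0.05 either. The 4 that fell became 1 without MCDHFD replicate 2, and 2 without ND replicate 1 or MCDHFD replicate 3. Under the identity scaling every gene of these 3 lists passed as higher, as did 11180 of all 13430 tested genes. All of the falls named in this paragraph thus turned.

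**Figure D4:**
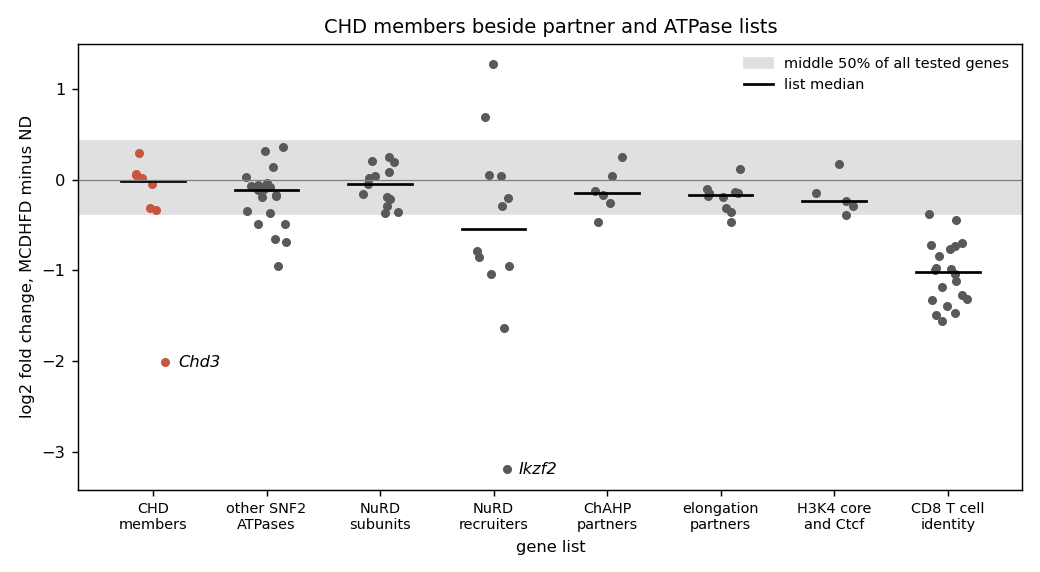
Log2 fold change (MCDHFD minus ND, deposited scaling) of the tested genes in each list, with 1 point per gene, a line at the list's median and a grey band for the middle 50% of all tested genes (-0.38 to 0.42). Chd3, at -2.01, lies below every other CHD member, SNF2-type ATPase and NuRD subunit. Under the identity scaling Chd3 is at -0.98 and all 13 NuRD subunits pass as higher, as do 11180 of all 13430 tested genes.

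The genes beside Chd3 on chromosome 11 did not share 1 direction. Distances here run between the nearest ends of the genes. Past its 3′ end lies Rnf227, 0.632 kb away on the other strand, which was at 16.4 and 22.1 normalized counts in ND and MCDHFD (log2 fold change 0.42, limma adjusted p = 0.226). Kcnab3, a potassium channel subunit 10.2 kb away, had 6.85, 2.92 and 0 normalized counts in ND and 30.1, 36.4 and 26.8 in MCDHFD, and rose by limma (adjusted p = 0.00281), from a level near the floor of 3 counts. Cntrob, a centriole protein 19.5 kb away, fell from 371 ± 27.3 to 120 ± 5.99 (-1.62, SE 0.10, limma adjusted p = 2.52e-06; -0.59 under the identity scaling). Trappc1, between these 2, was at 0.22 and did not pass. The limma calls here stand beside 30.3% of all tested genes that passed as higher and 28.1% as lower. On the 5′ side none of the 4 nearest measured genes passed by limma. Their log2 fold changes were -0.02 for Cyb5d1, -0.43 for Naa38, 0.37 for Tmem88 and 0.01 for Kdm6b, the H3K27 demethylase gene 29.1 kb away, which was at 4318 and 4351 normalized counts. Under the identity scaling Cyb5d1 and Naa38 turned to 1.01 and 0.59. The small RNA gene Gm22442, annotated inside Chd3, was not analysed here.

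**Figure D5:**
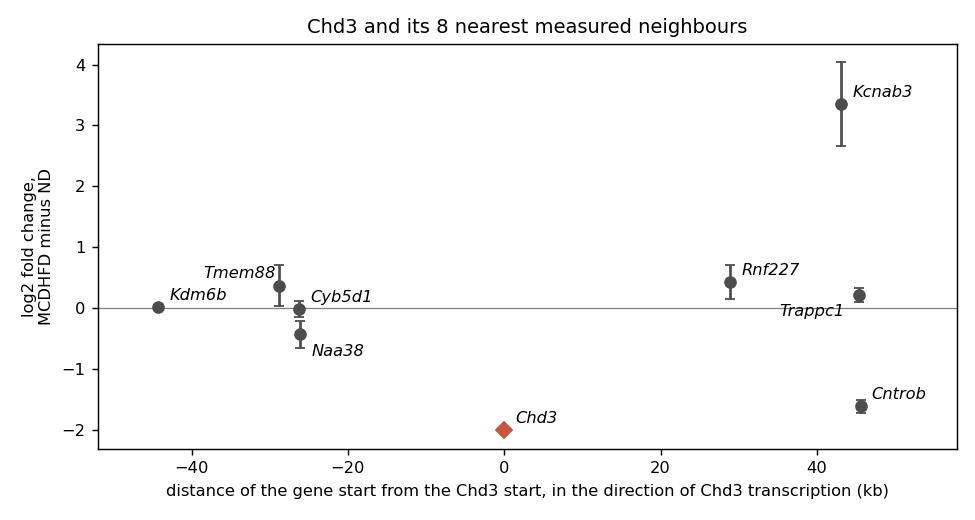
Log2 fold change (MCDHFD minus ND, deposited scaling) of Chd3 and of the 4 nearest measured genes on each side, against the distance in kb between the start of each gene and that of Chd3 in the direction of its transcription; error bars are limma's SE, and Chd3 has none since it is not tested. Chd3 (-2.01) and Cntrob (-1.62) lie low and Kdm6b at 0.01; under the identity scaling Cyb5d1 and Naa38 turn higher.

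Genes with the most similar profile to Chd3 were sought in the 3444 other genes that averaged at least 1000 normalized counts, by the root mean square distance between log2 profiles over the 6 libraries, each centred on its own mean. The nearest were Ikbke, a kinase of innate immune signalling, at a distance of 0.125, and Gimap4, a GTPase of lymphocytes, at 0.132. They were followed by Rnf213, a large ubiquitin ligase, at 0.152, and by Ifi208 and Ifi203, both at 0.153. None of the 3444 genes lay within 0.1 of Chd3. Ikbke averaged 5013 ± 233 in ND and 1465 ± 113 in MCDHFD (log2 fold change -1.78), Gimap4 from 5580.2 ± 479 to 1631 ± 258 (-1.78) and Rnf213 from 16924 ± 259 to 5028 ± 276 (-1.75). Ifi208 and Ifi203, at -1.73 and -1.77, belong to a cluster of similar copies whose reads may be shared, so their values are uncertain. All 5 differed by less than Chd3. The distance rests mostly on the diet contrast that chose Chd3 (log2 fold change -2.01, pooled SD within a diet 0.12 on that scale). These 5 genes are thus given as a description. Trnp1, the gene in the title of the series, rose (177 ± 25.9 to 2339 ± 72.4, log2 fold change 3.73, limma adjusted p = 7.25e-08).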

How the data were processed

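RNA-seq libraries of splenic CD8+ T cells (3 ND, 3 MCDHFD) were assigned to a diet by their labels. Total RNA was extracted with TRIzol, and a whole-RNA or an mRNA kit was used, per the labels' protocols, without saying which library had which. The build was mm10, per the submitters' processing notes. The names of the aligner, counter, strand setting and gene models remain not given in the sources used here. Per the file headers, the deposited table holds normalized counts, a signal scaled by the authors from reads per gene. Symbols were matched by identifier for 19202 of 19323 genes, and coordinates, exon lengths and transcript sequences came from GENCODE M21.

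Genes with a mean of at least 10 (13430) were tested on log2 of the value plus 1, with limma 3.58.1 (intensity trend, diet as the only term, R 4.3.3) and Benjamini-Hochberg adjustment over all of them at 0.05. All fold changes use that scale, so those of low genes are understated. Whole reads were recovered in 5 libraries (100% of values whole at a tolerance of 0.01) for edgeR 4.0.16 and DESeq2 1.42.0. ND replicate 3 was left out there, since its unit lay too near to 1 to check. Members and lists were chosen with earlier results of these data known. Named genes were all CHD genes, all NuRD subunits, up to 4 passing genes of each other list by size of change, the 4 nearest measured neighbours on each side of Chd3, the 5 genes most like it, and Cd8a, Cd3e and Trnp1. Ctcf, Hltf, Btaf1, Bcl11b, Zmynd8, Bcl6 and Zfp512b are named in part to complete short counts, after their values were seen. Alternatives were other pseudocounts, filters and scalings, library quality weights, a replicate block and leaving out each library. Within a diet, libraries correlated at 0.985 to 0.988 (log2 values), and the 4 pairs with recovered reads differed by more than sampling noise (chi-square per degree of freedom 6.46 to 12.3). The fits were tested on simulated data.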

Additional observations from a re-analysis of the deposited data

How the results depend on the processing

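The identity scaling changed the most. It gave 455 genes lower and 11180 higher, 0 NuRD subunits lower (also 0 at an unadjusted p under 0.05, limma) and 13 higher, and -0.98 for Chd3. Under it these log2 fold changes turned positive: Chd4 0.70, Chd7 0.72, Chd8 0.99, Chd1l 0.68, Mta3 0.88, Hdac1 0.75, Hdac2 0.67, Rbbp4 0.98, Rbbp7 0.67, Mbd3 0.82, Cdk2ap2 0.84, Adnp2 0.56, Pogz 0.77, Leo1 0.56, Ctr9 0.67, Supt5 0.72, Cdc73 0.84, Dpy30 0.64, Rbbp5 0.75, Ash2l 0.80, Ttf2 0.084, Ercc6 0.35, Srcap 0.55, Shprh 0.66, Cyb5d1 1.01, Naa38 0.59 and Cd3e 0.037. Near 0, Gatad2b turned to -0.062 under quantile scaling, to -0.094 without MCDHFD replicate 1 and to -0.13 without MCDHFD replicate 3 (0.28 without MCDHFD replicate 2). Cyb5d1 ranged from -0.12 to 0.11 over the libraries left out, turned to 0.0028 without MCDHFD replicate 1, and to 0.099 and 0.10 in edgeR and DESeq2, and Kdm6b to -0.0034 in edgeR. NuRD subunits called higher numbered 1 under quantile scaling and without the intensity trend and 0 in edgeR and DESeq2 (2 each at an unadjusted p under 0.05). Away from the floor, the identity scaling raises each log2 fold change by about 1.03, the amount by which the marker mean fell. Smaller falls thus turn under it by construction. The cause of the other changes, and of the fall of the markers, was not tested. Leaving out each library gave -2.08 to -1.94 for Chd3, 3308 to 3712 genes lower, 3644 to 3965 higher, 4 to 5 NuRD subunits lower and 1 to 3 higher (1 without ND replicate 1 or ND replicate 3). Quantile scaling gave 4557 genes lower and 3552 higher. Deviations from the diet mean correlated at 0.0365, 0.0621 and 0.00572 between same-numbered libraries. For ND replicates 1 and 2 the MCDHFD library of the same number gave the highest of the 3 correlations, and for ND replicate 3 it did not. With 3 libraries per diet these values cannot settle whether the numbers pair samples. With the replicate number as a block, 4010 genes were higher and 3697 lower. Over the named genes outside the family, 770 values under an alternative kept direction and call, 48 lost the call, 12 gained it and 31 turned. At 3 libraries per diet, small differences such as those of the NuRD subunits lie near what the spread allows to be called.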
